A study of Homo sapiens with 5 samples.

Results

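The sites described here are p53-binding sites of camptothecin (CPT)-treated HCT116 cells that carried the p53 consensus and no ATF3 peak. They were chosen from 9211 p53 peaks by 3 steps. The 9013 peaks on chromosomes 1 to 22 and X were kept, the 5481 that shared at least 1 bp with a p53 peak of p53-knockout cells were removed, and the remaining 3532 peaks were searched for the consensus with at most 3 mismatches. Of these 3532 peaks, 1583 (44.8%) held the consensus and 2874 (81.4%) overlapped no ATF3 peak of CPT-treated cells. The 2 conditions together left 1283 p53-motif sites without ATF3. The other peaks of the 3532 were 300 co-bound motif sites, which held the consensus and overlapped an ATF3 peak, 1591 sites with neither, and 358 sites with an ATF3 peak and no consensus.

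ChIP-seq was done in HCT116, a human colon cancer cell line, with a single library for each condition (n = 1, no replicates). The p53 antibody was used on p53-WT cells after CPT (p53-CPT) and on p53-KO cells that had DMSO only (p53-KO), so these libraries differed in both genotype and drug. The ATF3 antibody was used on ATF3-WT cells after CPT (ATF3-CPT), on ATF3-WT cells with DMSO only (ATF3-Ctrl) and on ATF3-KO cells with DMSO only (ATF3-KO). Exposure lasted 4 h, and the CPT dose was 1.5 μM. The ATF3-KO line had been made by AAV-based gene targeting, and the WT and p53-KO lines both came from another laboratory. Every test below compares sites of the same libraries, so its p-value covers sites and not repeated cultures. The libraries held between 1984941 tags (p53-KO) and 15457013 tags (ATF3-CPT), and a peak entered its list at 6 to 11 tags. At the depth of p53-KO, 457 of the 1283 sites (35.6%) would have fallen under its threshold of 6 tags even with equal signal, so the removal of peaks also found without p53 was incomplete for weak sites.

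p53 is a tumor suppressor that is stabilized by DNA damage and activates genes for cell cycle arrest, DNA repair and apoptosis. It binds DNA as a tetramer, and its consensus is a pair of decamers, each made of 3 purines, a C, 2 bases that are A or T, a G and 3 pyrimidines. ATF3 is a stress-induced factor of the ATF/CREB family that contacts DNA through a basic leucine zipper at ATF/CRE and AP-1 elements and can also bind p53 itself. CPT traps topoisomerase I on DNA and thereby causes strand breaks.

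The sequences below carry the main contrasts among these sites. They are read from the plus strand of GRCh37, the build of hg19, with the 20 bp of the best consensus match in capitals and 10 flanking bases on each side in lower case. Each is named by the protein-coding gene with the nearest transcription start site (TSS), which can be far away. The first set is the matches of the highest-scoring sites, with 0 mismatches in 6 of them, 2 at CDKN1A, 1 at GAS6 and 3 at ALOX5.
CDKN1A, chr6:36644216-36644255: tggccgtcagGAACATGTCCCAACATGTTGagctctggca
IER5, chr1:181104268-181104307: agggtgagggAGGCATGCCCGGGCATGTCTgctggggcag
ALOX5, chr10:45933984-45934023: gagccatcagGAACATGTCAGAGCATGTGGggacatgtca
IFNGR2, chr21:34739679-34739718: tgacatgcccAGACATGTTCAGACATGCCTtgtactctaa
TGFA, chr2:70824212-70824251: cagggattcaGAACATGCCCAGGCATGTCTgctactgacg
GAS6, chr13:114540385-114540424: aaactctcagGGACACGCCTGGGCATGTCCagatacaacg
PLAC8, chr4:84092330-84092369: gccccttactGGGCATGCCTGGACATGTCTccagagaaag
CLRN3, chr10:129661619-129661658: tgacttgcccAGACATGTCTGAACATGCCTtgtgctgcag
FBXO47, chr17:37203109-37203148: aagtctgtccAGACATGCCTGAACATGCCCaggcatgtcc

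The next set is shown because it comes from known p53 target genes whose sites had lower scores, and it holds matches with 0 mismatches (ZMAT3), 1 (CCNG1), 2 (MDM4) and 3 (PMAIP1).
ZMAT3, chr3:178787966-178788005: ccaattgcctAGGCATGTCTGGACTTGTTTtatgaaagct
CCNG1, chr5:162864922-162864961: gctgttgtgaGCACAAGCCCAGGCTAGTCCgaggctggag
MDM4, chr1:204494164-204494203: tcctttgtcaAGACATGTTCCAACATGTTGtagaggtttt
PMAIP1, chr18:57567033-57567072: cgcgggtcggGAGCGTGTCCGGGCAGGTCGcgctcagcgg

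The central bases of the decamers varied less than their ends. The C and the G take up 20% of the 20 positions but held 7.66% of the 2206 mismatches in the sites without ATF3, while the outer purines and pyrimidines (60% of positions) held 80.6%. In sequences of peak width lying 1000 bp from a p53-CPT peak, of which 644 of 9013 (7.15%) held a match, the C and the G took 45.5% of 1863 mismatches. Both decamers kept the C and the G in 88.6% of the sites without ATF3, in 74.3% of co-bound motif sites and in 17.2% of the distant matches. The letters CATG stood in the centre of 63.6% of decamers without ATF3, 44.8% of decamers at co-bound sites and 14.9% of distant decamers. These shares were not matched for the number of mismatches, so the sets are not compared on equal terms. A match with 3 mismatches was found in 23.5% of sites without ATF3, 46% of co-bound motif sites and 90.1% of distant matches. In 510 sites without ATF3 (39.8%), both decamers held CATG, as at IER5, IFNGR2 and TGFA above.

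The rule capped the mismatches of both sets of motif sites, so their numbers are described without a test. At most 1 mismatch was found in 506 of 1283 (39.4%, 95% Wilson interval 36.8 to 42.1) against 64 of 300 (21.3%, 17.1 to 26.3). The difference was 18.1 percentage points, and it was 12.1 points with the cap at 2 mismatches. By number of mismatches, 156 sites had 0, 350 had 1, 475 had 2 and 302 had 3. Only 5 of the 644 distant matches had 1 mismatch and 0 had none.

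A perfect consensus occurred 544 times on chromosomes 1 to 22 and X of the reference. Of these occurrences, 159 (29.2%) lay in a p53-motif site without ATF3 and 25 (4.6%) in a co-bound motif site, and 0 lay in a p53-CPT peak that p53-KO shared. The remaining occurrences were in no p53-CPT peak of the list. An ATF3-CPT peak covered 11 of the 544 and a p53-KO peak covered 1.

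The match lay at the centre of the peak. It was within 25 bp of the centre in 76% of the sites and within 50 bp in 90.6%, with a median distance of 13 bp. Distant matches were within 25 bp of the centre of their window in 15.2% of cases, close to the 17% that an even spread over a full-width peak would give. The share within 25 bp was 91.7% for sites with 0 mismatches, 81.1% with 1, 74.3% with 2 and 64.6% with 3. Co-bound motif sites had their match within 25 bp in 75.7%.

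**Figure D1:**
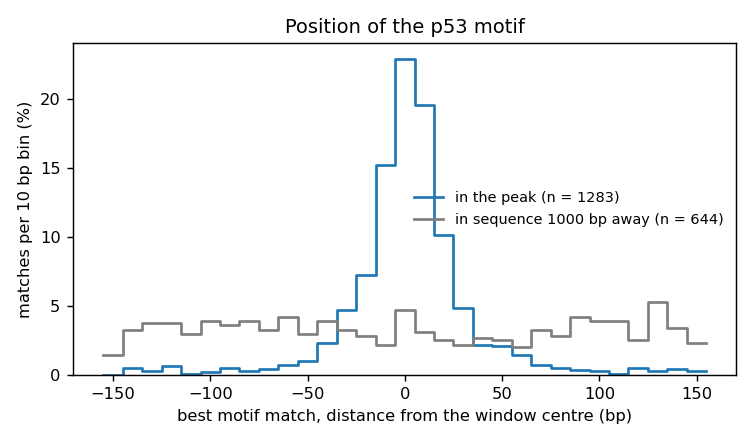
Distance of the best match to the p53 consensus from the centre of its window (bp) against the percentage of matches per 10 bp bin, for the 1283 peaks without ATF3 (blue) and for 644 matches in sequence of peak width 1000 bp away (grey). The blue line rises to a single peak at the centre, with 76% of matches within 25 bp, and the grey line is flat, with 15.2%.

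Peak strength is given as the findPeaks score, for which each position adds no more than 1 tag, and as the normalized tag count, scaled to a library of 10000000 tags. Strength helped to choose the sites, since peaks under 7 tags were not in the list, and is described without a test. The scores of the 1283 sites ran from 7 to 176 with a median of 13 (quartiles 8 and 23), and the normalized tag counts from 18.9 to 1186.2 with a median of 37.9. The median score was 16 (quartiles 9 and 32) at co-bound motif sites and 8 (7 and 10) at sites with neither motif nor ATF3. The threshold score of 7 was met exactly by 179 sites (14%) without ATF3 and by 544 (34.2%) of the sites with neither, so the last set lay largely at the limit of the list. A score of at least 50 was reached by 95 sites without ATF3 (7.4%), 40 co-bound motif sites (13.3%) and 11 sites with neither (0.691%). The strong sites without ATF3 were thus more numerous than the strong co-bound ones, but made up a smaller share of their set.

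**Figure D2:**
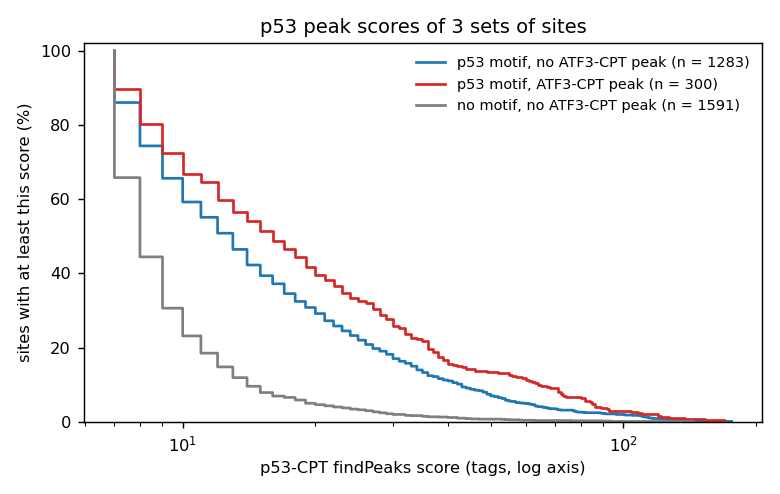
Percentage of sites (vertical axis) with at least the findPeaks score on the horizontal axis (tags, log axis) in the p53-CPT library, for 1283 p53-motif sites without ATF3 (blue), 300 co-bound motif sites (red) and 1591 sites with neither (grey). The red line lies above the blue line and the blue above the grey at most scores, with medians of 16, 13 and 8.

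Scores were higher at sites with fewer mismatches. The median was 19.5 with 0 mismatches, 16 with 1, 11 with 2 and 10 with 3, and the share of scores of at least 50 went from 16.7% through 9.14% and 5.68% to 3.31%. The spread within each class was wide, and the highest score of all belonged to a site with 2 mismatches. Among the sites with at most 1 mismatch, the median score was 22 where both decamers held CATG, 17 where 1 did and 11 where neither did. Over all 1283 sites, whatever their mismatches, the medians were 13, 13 and 10, so sites with CATG in both decamers and in 1 had the same median. Co-bound motif sites with 0 mismatches, of which there were 25, had a median score of 61 (quartiles 18 and 85). Just outside the motif rule, 448 peaks without ATF3 had 4 mismatches, and their scores had a median of 8 and a maximum of 44.

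**Figure D3:**
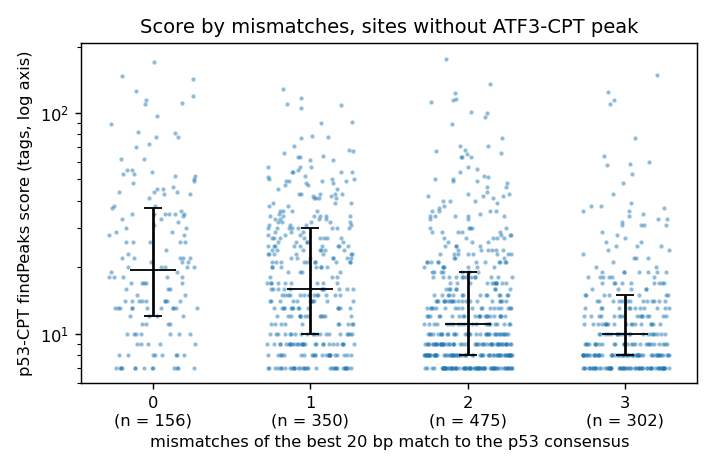
findPeaks score in p53-CPT (tags, log axis) of each of the 1283 sites without ATF3, by the number of mismatches of the best 20 bp match. Points are sites, and the black marks are medians (19.5, 16, 11 and 10) with quartiles. The 4 classes overlap over most of their range.

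The highest score, 176, was at CDKN1A, which encodes the cyclin-dependent kinase inhibitor p21. The peak at chr6:36644073-36644391 lay 5 bp upstream of the first annotated TSS of the gene and had a normalized tag count of 905.4 (exact 95% Poisson interval 804 to 1020). The nearest ATF3-CPT peak was 1110 bp away and weak, with a score of 14 where the list began at 9. The next site, at chr1:181104134-181104452, had a score of 170 and the same normalized tag count. It lay 46457 bp from the TSS of IER5, an immediate early response gene, with an ATF3-CPT peak (score 44) 902 bp away.

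The other sites among the 15 highest had scores from 114 to 149. The ALOX5 site, in an intron of the gene for arachidonate 5-lipoxygenase, had a score of 149. The site at -36032 bp from the TSS of IFNGR2, which encodes a chain of the interferon gamma receptor, had a score of 147. The site at -42911 bp from TGFA, the gene of the growth factor TGF-alpha, had a score of 143 and the strongest neighbouring ATF3-CPT peak of the 15 (score 89, 428 bp away).

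GAS6, a ligand of the TAM receptor kinases, held an intronic site with a score of 128 and an ATF3-CPT peak (score 66) at 225 bp. PLAC8 (126), CLRN3 (120), SLC28A3 (117) and FBXO47 (114) were the nearest protein-coding genes of intergenic sites lying between 29571 and 101860 bp from a TSS. METRNL (136), MZF1 (123) and RABL2A (116) were also among the highest, together with a site in an intron of THSD4, for which NR2E3 had the nearest TSS (the site lay at -333266 bp). The last site had a score of 114 and the highest normalized tag count of all, 1186.2 (1070 to 1310). The CDKN1A and IER5 sites had higher scores (176 and 170) at a lower count of 905.4. More tags of the THSD4 site thus lay at repeated positions, and its interval treats them as independent. Its match had 3 mismatches and lay at -63 bp from the peak centre. Among the 15, only CDKN1A lay within 2 kb of a TSS, counted at the outermost annotated start of each gene. Other starts of the gene were not used.

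**Figure D4:**
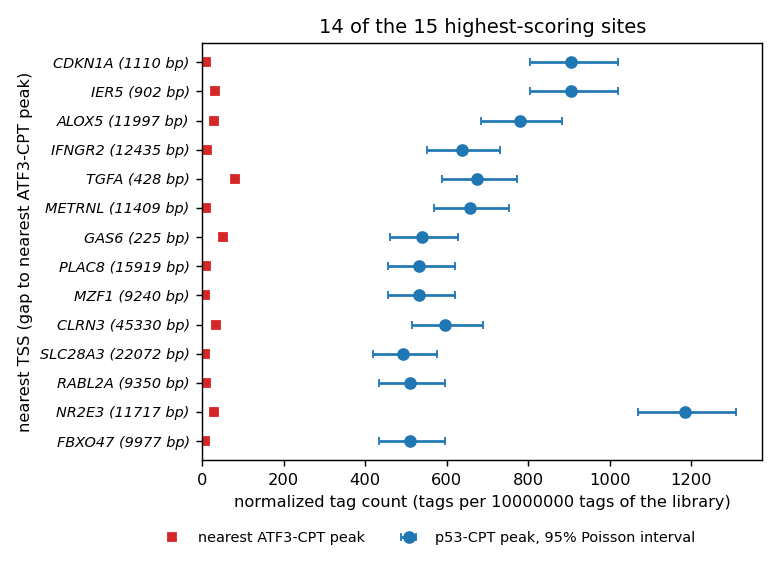
Normalized tag count (scaled to 10000000 tags) of 14 of the 15 highest-scoring p53-motif sites without ATF3, in order of score from the top, with exact 95% Poisson intervals that cover counting error only (blue), and of the nearest ATF3-CPT peak (red), whose gap in bp follows the name of the gene with the nearest TSS. The p53 values run from 492.2 to 1186.2 and the ATF3 values from 6.5 to 79.6. The intervals treat tags at the same position as independent. The 2 antibodies differ, so their values are not levels on one scale.

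Perfect matches were also found under strong intergenic peaks with BCL2A1 (score 111), a gene of the BCL2 family, and FAM3C (89) as the nearest TSS. Others lay in a PRKAG2 intron with RHEB as the nearest TSS (110) and in a DLEU7 intron (97). The PRKAG2 site had a strong ATF3-CPT peak (score 109) at a gap of 280 bp. The DLEU7 site missed an ATF3-CPT peak (score 28) by 18 bp. The perfect match of an intergenic site with FAM20A as the nearest TSS had a score of 11, and that of a site near CDH9 had a score of 13. A perfect consensus was therefore found from near the bottom to near the top of the range.

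Most sites were far from a TSS. The peak centre was intergenic in 703 sites (54.8%), in an intron in 532 (41.5%), in a UTR exon in 40 (3.12%) and in a coding exon in 8 (0.624%), counted on protein-coding genes. The median distance to the nearest protein-coding TSS was 51489 bp (quartiles 18024 and 154563.5), and 440 sites (34.3%) lay over 100 kb away. The median was 32640.5 bp at co-bound motif sites and 64241 bp at sites with neither.

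Fewer of the sites lay in promoters, taken as the region within 2 kb of a TSS, than of the co-bound motif sites. They numbered 63 of 1283 (4.91%, 3.86 to 6.23) against 37 of 300 (12.3%, 9.08 to 16.5), a difference of -7.42 points (two-sided Fisher's exact test, adjusted p = 3.1e-05, with Benjamini-Hochberg adjustment over 6 tests). These 2 sets were split by ATF3-CPT overlap, and the paper describes basal ATF3 peaks as enriched in promoters. The difference between them may therefore restate the split and is no separate result about the sites without ATF3. Against the sites with neither, where 110 of 1591 (6.91%, 5.77 to 8.27) lay in promoters, the difference was -2 points (two-sided Fisher's exact test, adjusted p = 0.032). In the same exact test, this second difference did not hold among peaks with a score of at least 10, where it was 2.19 points in the other direction (adjusted p = 0.13), nor without the sites that share their 20 bp match with another site, where it was -0.459 points (adjusted p = 0.68). Over 12 alternatives the adjusted p ran from 0.00019 to 0.69.

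Known p53 target genes held sites without ATF3 more often than protein-coding genes at large. From 20 kb upstream of the TSS to the end of the gene, 827 of 20098 protein-coding genes (4.11%) held at least 1, and 24 of 80 listed p53 targets (30%) did. The list was drawn up from known targets with earlier results of these data in view, so the count is a description. Co-bound motif sites were found at 12 of the 80 (15%) and at 241 of the 20098 (1.2%), so a higher share at listed genes was seen for both kinds of site. Another 9 listed genes held co-bound motif sites only, CDKN1A, BBC3 and BCL2L1 held both kinds, and 47 held neither. The 25 sites at listed genes had a median score of 31 (8 to 176), against 13 over all 1283. Of these 25, 17 lay within 2 kb of a protein-coding TSS, and the median gap to an ATF3-CPT peak was 930 bp. Only 6 had at most 1 mismatch.

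Among cell-cycle arrest genes, 5 of 11 held a site without ATF3. At CDKN1A a further such site lay in an intron, 6176 bp downstream of the first TSS, with a score of 36 and an ATF3-CPT peak 125 bp away. A co-bound motif site of the same score lay at -9215 bp, where the overlapping ATF3-CPT peak had a score of 158. The highest-scoring of these p53 sites and the strongest of their nearest ATF3-CPT peaks were thus at different places. Other ATF3-CPT peaks of the gene were not compared. TRIM22, an interferon-inducible tripartite motif gene, had a score of 33. BTG2, an antiproliferative gene, had a score of 31, CCNG1 (cyclin G1) 14 and SFN (14-3-3 sigma) 12. GADD45A and PLK2 held co-bound motif sites only.

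Among apoptosis and death receptor genes, 11 of 23 held such a site, and 2 of these held a co-bound one as well. The decoy and death receptors of TRAIL lie side by side, and TNFRSF10B, which encodes the death receptor DR5, had a score of 63, TNFRSF10C 17 and TNFRSF10D 16, each in an intron within 2 kb of the TSS. BBC3, which encodes the BH3-only protein PUMA, had a site with a score of 59 at 1423 bp downstream of the TSS and a co-bound site with a score of 37 at 191 bp. The 2 BBC3 sites had the same nearest ATF3-CPT peak, which lay 1205 bp from the first and covered 27 bp of the second.

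AEN, an apoptosis-enhancing nuclease, had a score of 54 with its peak 27 bp upstream of the TSS. BAX, a pore-forming member of the BCL2 family, had a score of 36 in a UTR exon, and ZMAT3, a p53-induced zinc finger gene, had 35 at a perfect match. Lower scores were found at FAS (17), which encodes a death receptor, BCL2L1 (13), an inhibitor of apoptosis, TNFAIP8 (11) and PMAIP1 (10), which encodes NOXA. The FAS peak lay 694 bp downstream of the FAS TSS and 12 bp upstream of that of ACTA2, a gene on the other strand.

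The remaining lists held fewer. Of 13 genes for DNA repair and nucleotide supply, 4 had a site without ATF3. They were RPS27L (score 110, with an ATF3-CPT peak 16 bp away), a ribosomal protein gene, RRM2B (78), a ribonucleotide reductase subunit, DDB2 (47), a subunit of the UV damage sensor, and FANCC (8), a Fanconi anemia gene. Of 17 genes for metabolism and antioxidant defence, 2 had one, which were GPX1 (41), a glutathione peroxidase, and SESN1 (17), a sestrin. Of 9 feedback regulators, MDM4 (12), an inhibitor of p53, was the only one, and the MDM2 and PPM1D sites were co-bound. Of the 7 other targets, APAF1 (10), the apoptosome scaffold, was the only one, and its peak also lay at the start of the neighbouring gene IKBIP. GDF15 and ABCA12 held co-bound motif sites.

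The rule used ATF3-CPT overlap, and the distances to ATF3 follow without a test. The nearest ATF3-CPT peak lay at a median of 10325 bp (quartiles 2553 and 29206), against 14590 bp (3818 and 61290.5) for the sites with neither. It was within 1 kb at 180 sites (14%) and within 10 kb at 633 (49.3%), and farther than 100 kb at 112 (8.73%). For the sites with neither, those shares were 12.1%, 41.9% and 18.7%.

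**Figure D5:**
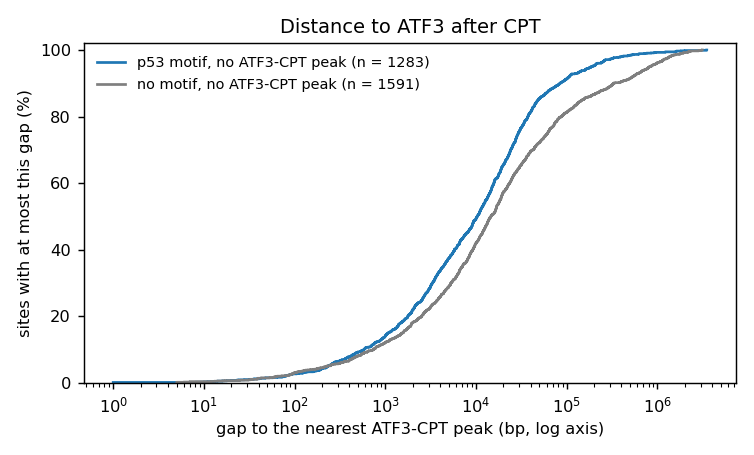
Percentage of sites (vertical axis) whose nearest ATF3-CPT peak lies at most the distance on the horizontal axis (bp, log axis), for 1283 p53-motif sites without ATF3 (blue) and 1591 sites with neither motif nor ATF3 (grey). The lines run together at short distances and then part, with medians of 10325 and 14590 bp.

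Sites closer to ATF3 were more often in promoters and had a poorer match. Of the 180 sites with a gap of up to 1 kb, 38 (21.1%) were in promoters and 26.1% had at most 1 mismatch. Those shares were 4.42% and 37.5% from 1 to 10 kb, and 0.929% and 42.6% from 10 to 100 kb. Beyond 100 kb, 0 of 112 sites were in promoters and 53.6% had at most 1 mismatch. The median score changed little over the same classes, from 14 through 13 and 13 to 11.

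Some sites stood at the limit of the overlap rule. A gap of 1 bp separated the RPS19 site (score 101), in a UTR exon of a ribosomal protein gene, from an ATF3-CPT peak with a score of 14. Gaps of 8 to 13 bp were found at TRIM35 (score 12), PHACTR4 (7), GPX1 (41) and S100A2 (34), and the ATF3-CPT peak beside the S100A2 site was strong, with a score of 121. Just outside the rule, co-bound motif sites with the smallest overlap were near ZNF750 (1 bp, p53 score 9), ANKEF1 (5 bp, 8), REV1 (6 bp, 8) and LCA5 (6 bp, 27) and at PCNA (8 bp, 25), which encodes the DNA polymerase clamp. In all, 54 sites (4.21%) had an ATF3-CPT peak within 200 bp. At the other end, the farthest sites lay 3499980 bp (near PRR20A), 3015397 bp (CHL1), 2005684 bp (TMEM257), 1812410 bp (SORCS1) and 1614277 bp (CDH9) from ATF3, with p53 scores between 7 and 17 and a perfect match in 3 of the 5.

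The rule did not use ATF3 peaks of cells given DMSO, but these are not an independent readout. Per the paper, most basal ATF3 peaks were also found after CPT, and the rule removed sites with an ATF3-CPT peak. A low overlap was thus largely set by the rule, while 111 of 300 co-bound motif sites overlapped an ATF3-Ctrl peak. An ATF3-Ctrl peak overlapped 7 of 1283 sites (0.546%, 0.265 to 1.12) against 38 of 1591 sites with neither (2.39%, 1.75 to 3.26), a difference of -1.84 points (two-sided Fisher's exact test, adjusted p = 8e-05). The 7 sites were at RPS19 and AEN, in introns of AHCY, RAB27B, RPH3A and RUNX1, and at -96638 bp from the TSS of FAM20A. The RUNX1 site had CLIC6 as the nearest TSS. The ATF3-Ctrl scores of the 7 sites were between 9 and 29 in a list that began at 9. An ATF3-KO peak overlapped 0 of the 1283 sites and 24 of the sites with neither, so the 2 sets also differed in signal found without ATF3. Without the p53-KO step of the rule, the ATF3-Ctrl difference was -0.433 points (same exact test, adjusted p = 0.19). Over 10 alternatives the adjusted p ran from 6.1e-08 to 0.19.

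The elements that ATF3 is known to bind were rare in these sites. An exact AP-1 core (TGACTCA or TGAGTCA) or ATF/CRE core (TGACGTCA), searched on both strands of the whole peak, was present in 53 of 1283 (4.13%, 3.17 to 5.36), 52 of them with the AP-1 core and 2 with the ATF/CRE core. Co-bound motif sites held one in 107 of 300 (35.7%, 30.5 to 41.2), a difference of -31.5 points (two-sided Fisher's exact test, adjusted p = 2.4e-45). These 2 sets were split by ATF3-CPT overlap, and the cores are elements that ATF3 itself binds. The difference between them therefore largely restates the split and is no separate result about the sites without ATF3. The sites with neither held one in 60 of 1591 (3.77%, 2.94 to 4.82), and this difference of 0.36 points did not pass the exact test (adjusted p = 0.63), with an adjusted p from 0.0063 to 1 over 10 alternatives. In sequence 1000 bp to the side, the share was 5.77% for the sites without ATF3. Sites with a core included RRM2B and SESN1.

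Many of the sites shared their 20 bp match with another site, and few shared a longer stretch around it. The same 20 bp match was found in at least 1 other site for 334 of the 1283, in 76 groups, and the same 60 bp around the match for 47, in 13 groups. Reads from copies that are identical over their length cannot be assigned to 1 of them, so values of those sites are uncertain. Sites that share their match had a median score of 14 and the 949 others of 12. The largest group had 35 sites with a median score of 10, out of 78 exact copies of the match on chromosomes 1 to 22 and X.

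Groups of copies differed widely in the share that lay in a site without ATF3. Copies outside these sites are not shown to be unbound, since some lay in co-bound motif sites. The groups below are shown because most of their genomic copies were in the list. They are given in 1 orientation, with all 20 bases in capitals.
14 sites with 1 mismatch: GGGCATGTCTGGGCAAGTCA
9 sites with 0 mismatches: GGGCATGCCCAGACAAGCCC

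Of the first, 82.4% of 17 copies lay in a site without ATF3, with scores from 16 to 110 and a median of 34, and the highest was at chr1:244898744-244899062. Of the next, 75% of 12 copies did, with a median score of 36, and the highest (82) was at chr4:31236131-31236449, 514299 bp from the TSS of PCDH7. Of another perfect match, 45.2% of 31 copies did, with a median score of 13, and the highest (30) was at chr12:32401776-32402094 in the region of BICD1. The score therefore ranged several-fold among sites with an identical match. In each of these 3 groups, 0 sites were in promoters, against 4.91% of all 1283 sites. With at most 14 sites in a group, a count of 0 is near that share.

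A further group had 15 sites on 13 chromosomes out of 16 copies of its match, with a median score of 77 and a maximum of 136. It held METRNL, MZF1 and RABL2A of the 15 highest sites, PRMT2 (114), RABL2B (112) and CHAMP1 (100). Of its 15 sites, 11 had the same 60 bp as another site. Within 100 kb of a chromosome end lay 9 of the 1283 sites (0.701%), against 0.151% of the chromosomes' length, and their median score was 100. Of the 5481 p53-CPT peaks that p53-KO shared, 0.456% lay there. Apart from a site with a score of 8, the 9 sites belonged to the group of copies above. Their number and median score thus rest mostly on a single repeated match. The class of sites near chromosome ends was chosen after its values were seen, and all tests above kept their direction and their side of the threshold without it. The METRNL site was 9484 bp from the end of its chromosome and had 2 matches in the peak.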

How the data were processed

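p53 and ATF3 ChIP-seq peak lists of 5 libraries from HCT116 cells were used. Per the labels and file headers, the authors aligned reads to hg19 with BWA 0.6.1 and ran findPeaks of HOMER 4.1 on each library by itself, at a false discovery rate of 0.001 and a fold of 4 over the local 10 kb. The signal that the authors deposited is a normalized tag count, scaled to 10000000 tags, and the deposited score is a number of tags with at most 1 per position. The authors also deposited a local fold ratio, its p-value and a focus ratio, which is a fraction, and none of these was tested here. Tags in p53-CPT numbered 3169743, so 1 tag was worth 3.155 in normalized tag count. Peaks below 7 tags were not listed, and intervals cover counting error only. The Poisson intervals treat tags at the same position as independent.

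Overlap needed 1 bp. The p53 consensus was 2 decamers without a spacer. It is its own reverse complement, so 1 strand was scanned. Genes and TSS were those of protein-coding genes of GENCODE 44 on GRCh37, with 1 TSS per gene at its outermost start. Shares were compared by two-sided Fisher's exact tests across sites with Benjamini-Hochberg adjustment over 6 tests (the one on mismatches, a value the rule used, is not reported), and are given with 95% Wilson intervals. Python 3.11.15, scipy 1.17.1 and pysam 0.24.0 were used, and the scripts passed 7 of 7 checks on simulated data.

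Named sites were the 15 highest scores, all sites at 80 listed genes, the 10 highest perfect matches, the 5 nearest to and 5 farthest from ATF3-CPT, and the 5 co-bound sites with the smallest overlap. Some of the named sites are not reported here. Sites overlapping ATF3-Ctrl, shared matches and chromosome ends were added after the values were seen. The sites and lists were chosen with earlier results of these data known. Alternatives covered the overlap, the scores, the motif, the window and the promoter.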

Additional observations from a re-analysis of the deposited data

How the results depend on the processing

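With 1 library per condition, no result has a replicate check. No paired analysis was possible because the groups share fewer than 2 replicate numbers. The share of matches in repeat-masked sequence was not run, since the reference has no masked bases. The differences from co-bound motif sites in promoters and AP-1 or ATF/CRE cores kept their direction and significance under the 12 and 10 alternatives run for them, and that in mismatches kept its direction under 10. The core difference from co-bound motif sites largely restates the split by ATF3-CPT overlap, and the promoter difference from them may restate it too. Requiring at least 50% of the p53 peak to be covered by an ATF3-CPT peak, which is much narrower, was void: it left no co-bound motif site and added all 300 to the 1283, which by construction moved the core difference from sites with neither to 2.91 points and the median ATF3-CPT gap to 5322 bp. The promoter difference from sites with neither was less stable. It was not significant with ATF3-CPT peaks within 200 bp counted as shared (-1.08 points), at most 4 mismatches (-1.48), 200 bp around the centre (-1.68), TSS of all gene types (-0.522) or without sites sharing their match (-0.459, chosen after seeing the data). It changed sign without the p53-KO step (0.506) and at p53 scores of at least 10 (2.19). The core difference from sites with neither passed the test with ATF3 scores of at least 20 (2.14 points), where sites with weaker ATF3 peaks joined the set (1426 sites), and in 200 bp (1.34), and changed sign without passing without the p53-KO step (-0.0273), at p53 scores of at least 10 (-0.274) and at most 2 mismatches (-0.398). The ATF3-Ctrl difference was not significant without the p53-KO step (-0.433). The sites numbered 842 at p53 scores of at least 10. Their median score was then 18, and it was 14 with at most 2 mismatches and 11 with at most 4. The median ATF3-CPT gap was 11922.5 bp without the p53-KO step, 27331.5 bp with ATF3 scores of at least 20 and 8686 bp without sites sharing their match. The depth of p53-KO limits the removal of weak shared peaks.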
